A study of Rattus norvegicus with 9 samples.

Results

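Whole-bone RNA from the rat tibia was examined for 45 genes of the cell cycle and of proliferation that were listed by name for their known roles. All 45 were among the 22589 genes listed in the deposited tables, and 44 had enough counts to be tested. They were read in 4 roles, with 12 genes of the G1/S transition, 5 inhibitors, 12 genes of DNA replication and 16 mitotic genes. The 9 libraries came from female Sprague-Dawley rats that arrived at 9 weeks of age, with 3 rats in each of 3 groups. The RE/Ovx rats had both ovaries removed and then climbed a ladder with a load tied to the tail for 12 weeks, after 2 weeks of habituation. The NE/Ovx rats had both ovaries removed and were not exercised. The Sham rats were operated on but lost only a piece of fat close to the ovary. Tibiae were collected 24 weeks after the operation and cleared of skin, muscle, ligament and tendon. The RNA stood for bone and marrow together with any cartilage or muscle left on the bone. Skeletal muscle genes still had counts in every library, at levels given below.

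A cell that divides passes from G1 into S phase when D-type and E-type cyclins activate their kinases, the retinoblastoma protein lets go of the E2F factors, and E2F turns on the genes that copy DNA. The mitotic cyclins and kinases follow, and inhibitor proteins of the Cip/Kip and INK4 families hold the cyclin-dependent kinases back. In a whole long bone most dividing cells are blood cell precursors of the marrow, with smaller numbers in the growth plate and on bone surfaces. In such bulk RNA, fewer cells of a dividing type and less RNA per cell cannot be told apart.

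Each library held between 12297992 and 16671533 counts assigned to genes. Levels are given below as CPM, the counts of a gene relative to the total of its library after scaling with TMM factors, for RE/Ovx rats 3, 5 and 8, then NE/Ovx rats 6, 8 and 9, then Sham rats 12, 7 and 8. Differences are log2 fold changes from edgeR's quasi-likelihood test of all 9 libraries with their standard errors (written after ±), and a gene was called where the Benjamini-Hochberg adjusted p over 14520 tested genes was under 0.05. A second, looser reading used the cut-offs of the study, an unadjusted p under 0.05 with a fold above 1.2 or below 0.83. Such p-values set a difference between groups against the spread between rats, which was estimated from all 9 libraries with information shared over genes. An exact permutation of 3 against 3 cannot go below 0.1. Each group stands in 2 of the 3 comparisons, so that the comparisons share rats. The genes of this set also moved together within a rat, so they are not separate observations of a group.

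The tissue labels were checked against markers of bone. Col1a1, the main collagen of bone, had between 15607 and 25414 CPM in the RE/Ovx rats, between 14462 and 23781 CPM in the NE/Ovx rats and between 5239 and 7466 CPM in the Sham rats. Bglap, the osteoblast product osteocalcin, and Dmp1, a marker of osteocytes, were at 58.8 CPM or more in every rat.

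Proliferation genes were abundant in every library. Compared per length, as fragments per kilobase and library size (FPKM), the median of the 44 tested genes over the 9 rats was 40.1 FPKM. Pcna, the sliding clamp of DNA replication, had the highest mean level of the set with 153 FPKM, followed by Mki67, which coats mitotic chromosomes, with 148 FPKM and Ccnd3, a D-type cyclin that activates Cdk4 and Cdk6, with 146 FPKM. Cdkn1b, the Cip/Kip inhibitor p27, was the highest of the inhibitors with 68.1 FPKM. Cdkn1c, the inhibitor p57, had the lowest mean of the tested set with 4.88 FPKM. Cdkn2a, which encodes the INK4 inhibitor p16 and the p19Arf protein, was not tested. It had 0, 0 and 5 counts in the RE/Ovx rats, 3, 2 and 2 counts in the NE/Ovx rats and 5, 4 and 1 counts in the Sham rats. Those counts were all at or near the limit of 3 counts per library, which stood for between 0.182 and 0.25 CPM, so no level was compared.

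**Figure D1:**
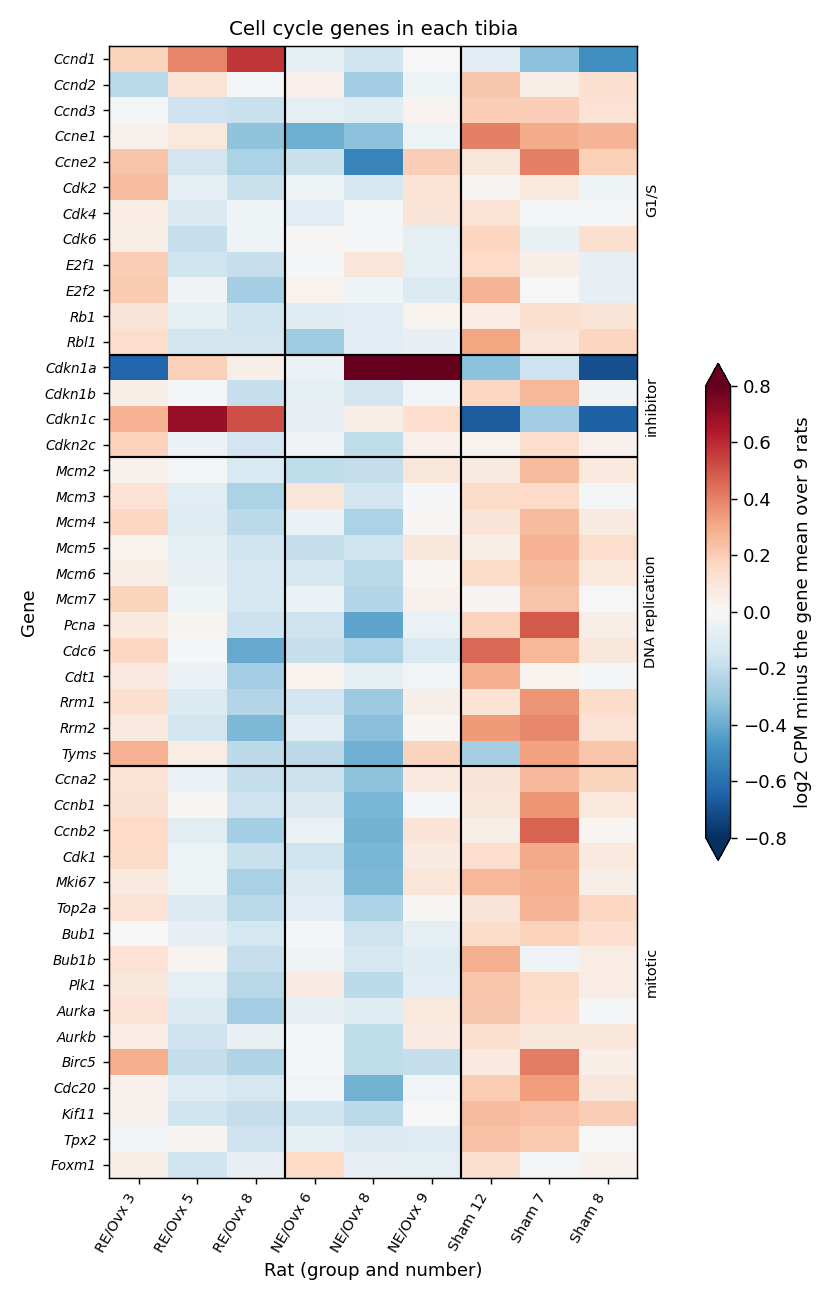
Levels of the tested genes in each rat, as log2 CPM minus the gene's mean over the 9 rats, with genes in rows by role and rats in columns in the order RE/Ovx, NE/Ovx and Sham. Averaged over the genes, the value is above 0 in RE/Ovx rat 3, NE/Ovx rat 9 and the 3 Sham rats, and it is lowest in NE/Ovx rat 8 and RE/Ovx rat 8.

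Ovariectomy without exercise was set against the sham operation to ask what estrogen loss did to these genes. All replication and mitotic genes had log2 fold changes below 0 in the NE/Ovx rats, by a modest amount, while 2 inhibitors of the Cip/Kip family had log2 fold changes well above 0. No gene of the set passed the adjusted threshold in edgeR, against 1.03% of all tested genes called higher and 0.2% called lower, and 21 of the 44 had an unadjusted p under 0.05, against 20.5% of all tested genes. With DESeq2 on the 9 libraries 4 of the 44 genes passed, Ccne1, Pcna and Kif11 as lower and Cdkn1a as higher. DESeq2 called 998 of all 14520 tested genes in this comparison, in either direction. By the cut-offs of the study 13 genes were lower, or 29.5% of the 44 against 6.52% of all tested genes, and 2 were higher, or 4.55% against 11.3%. That total of 15 became 8 when NE/Ovx rat 8 was left out. Over all tested genes the total in either direction was 2595 of 14520 with all rats and 2132 of 14674 without that rat. The log2 fold change was below 0 for 41 of 44 genes, against 49.6% of all tested genes, and the exceptions were Ccnd1, Cdkn1a and Cdkn1c. In 21 genes the 3 NE/Ovx values all lay below the 3 Sham values, or 47.7% against 11.4% of all tested genes, and in Cdkn1a and Cdkn1c they all lay above, against 13.9%. The median log2 fold change was -0.23 over the 44 genes and 0.0029 over all tested genes.

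Among the G1/S genes the median log2 fold change in NE/Ovx against Sham rats was -0.13. The cut-offs of the study were passed by 2 of 12, both as lower, or 16.7% against 6.52% of all tested genes. Ccne1, the cyclin that activates Cdk2 at the entry into S phase, had 75.8, 78.7 and 59.3 CPM in the RE/Ovx rats, 56.4, 59.0 and 71.9 CPM in the NE/Ovx rats and 98.0, 90.9 and 89.4 CPM in the Sham rats. The NE/Ovx and Sham values did not overlap, with RE/Ovx rats 3 and 5 between them and RE/Ovx rat 8 among the NE/Ovx values. Ccne1 had a log2 fold change of -0.57 ± 0.13, a fold of 0.674, with an adjusted p of 0.0634 in edgeR. Rbl1, which encodes the pocket protein p107, had 126, 103 and 103 CPM in the RE/Ovx rats, 94.1, 107 and 109.5 CPM in the NE/Ovx rats and 142, 123 and 129 CPM in the Sham rats. Its NE/Ovx rats were all below its Sham rats, with a log2 fold change of -0.34 ± 0.11 and an adjusted p of 0.125. Ccnd3 had 280.2, 252 and 251 CPM in the RE/Ovx rats, 269, 265 and 289.5 CPM in the NE/Ovx rats and 326, 325 and 307 CPM in the Sham rats. The NE/Ovx values of this D-type cyclin were likewise below all Sham values, but the log2 fold change of -0.22 ± 0.08 was short of the fold asked by the study. The kinases Cdk2, Cdk4 and Cdk6 and the factors E2f1 and E2f2 had log2 fold changes between -0.11 and -0.03 and overlapping groups. The remaining G1/S genes were Ccnd2 at -0.22 ± 0.11, Ccne2 at -0.37 ± 0.18 and Rb1, the retinoblastoma protein itself, at -0.15 ± 0.09, none of which passed either threshold.

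Inhibitors split by gene. Cdkn1a, the Cip/Kip inhibitor p21 that p53 can induce, had 7.54, 13.4 and 12.1 CPM in the RE/Ovx rats, 11.4, 21.0 and 20.7 CPM in the NE/Ovx rats and 9.33, 10.5 and 7.17 CPM in the Sham rats. All NE/Ovx values were above all Sham values, and the spread among the RE/Ovx rats took in values of both other groups. In NE/Ovx against Sham rats the log2 fold change of Cdkn1a was 0.97 ± 0.28, a fold of 1.97, with an adjusted p of 0.106 in edgeR. Cdkn1c had 12, 16.0 and 14.1 CPM in the RE/Ovx rats, 9.4, 10.2 and 10.8 CPM in the NE/Ovx rats and 6.17, 8.11 and 6.21 CPM in the Sham rats. Its values stepped without overlap between the groups, highest in RE/Ovx and lowest in Sham rats. The log2 fold change of Cdkn1c in NE/Ovx against Sham rats was 0.57 ± 0.17, with an adjusted p of 0.115. Cdkn1b had 169, 162 and 144 CPM in the RE/Ovx rats, 155, 148 and 161 CPM in the NE/Ovx rats and 183, 197 and 161 CPM in the Sham rats, and its groups overlapped, with a log2 fold change of -0.22 ± 0.1. Cdkn2c, the INK4 inhibitor p18, was at -0.13 ± 0.11. The median of the 4 tested inhibitors was 0.22, a value between a pair of genes above 0 and a pair below it, and it was -0.127 with no filter on low counts, which let in Cdkn2a.

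**Figure D2:**
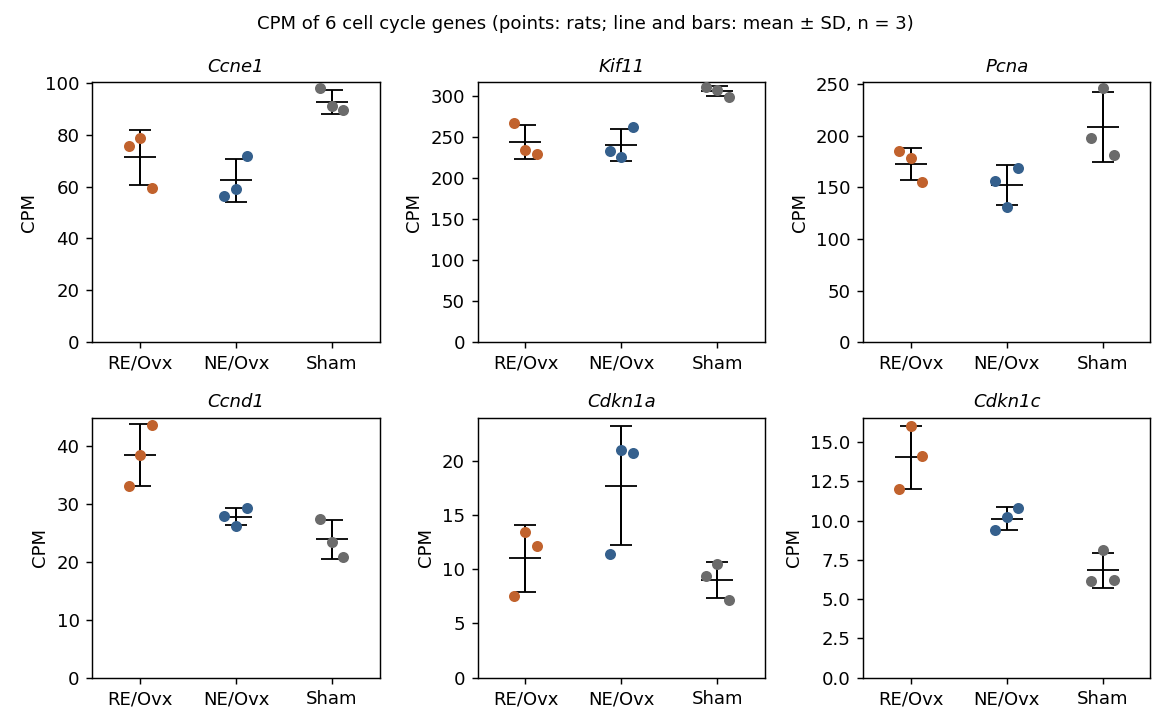
CPM in each rat for Ccne1, Kif11, Pcna, Ccnd1, Cdkn1a and Cdkn1c, with points for rats, lines and bars for the mean ± SD (n = 3) and groups in the order RE/Ovx, NE/Ovx and Sham. Ccne1, Kif11 and Pcna are lower in the NE/Ovx than in the Sham rats without overlap, Ccnd1 and Cdkn1c are highest in the RE/Ovx rats, and Cdkn1a has its highest mean in the NE/Ovx rats.

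All 12 replication genes had log2 fold changes below 0 in NE/Ovx against Sham rats, between -0.46 and -0.11 with a median of -0.24. Of these 12 genes, 5 passed the cut-offs of the study, all as lower, against 6.52% of all tested genes. In 6 of the 12 the NE/Ovx rats all lay below the Sham rats, against 11.4% of all tested genes. Pcna had 185, 178 and 155 CPM in the RE/Ovx rats, 156, 131 and 169 CPM in the NE/Ovx rats and 198, 246 and 181 CPM in the Sham rats. NE/Ovx rat 9 was the highest of its group and still below the lowest Sham rat. Its log2 fold change was -0.46 ± 0.14, with an adjusted p of 0.113 in edgeR. Cdc6, which loads the replicative helicase onto origins, had 87.5, 77.3 and 59.0 CPM in the RE/Ovx rats, 68.6, 65.4 and 71.7 CPM in the NE/Ovx rats and 107, 93.6 and 82.9 CPM in the Sham rats. Here too the NE/Ovx and Sham rats did not overlap, and the log2 fold change was -0.46 ± 0.14. Both subunits of ribonucleotide reductase, the enzyme that makes deoxyribonucleotides, passed the cut-offs of the study. Rrm1, the large subunit, had 324, 275 and 252 CPM in the RE/Ovx rats, 267, 243 and 307 CPM in the NE/Ovx rats and 321, 379.6 and 329 CPM in the Sham rats. Rrm2, the small subunit, had 149, 127 and 110 CPM in the RE/Ovx rats, 133, 112 and 143 CPM in the NE/Ovx rats and 178, 184 and 153 CPM in the Sham rats. The log2 fold changes were -0.33 ± 0.13 for Rrm1 and -0.41 ± 0.13 for Rrm2, and in both genes every NE/Ovx rat was below every Sham rat. Mcm6, one subunit of the MCM helicase, had 177, 165 and 157 CPM in the RE/Ovx rats, 156, 148 and 173 CPM in the NE/Ovx rats and 190.4, 204 and 182 CPM in the Sham rats. It was the MCM gene that passed the cut-offs of the study, at -0.27 ± 0.09, and the 5 other MCM genes lay between -0.24 and -0.11. Tyms, thymidylate synthase, had 116, 99.5 and 82.6 CPM in the RE/Ovx rats, 82.8, 73.3 and 108 CPM in the NE/Ovx rats and 79.4, 119 and 112 CPM in the Sham rats. Its groups overlapped widely, with a log2 fold change of -0.23 ± 0.19, and Cdt1, the partner of Cdc6 in helicase loading, was at -0.12 ± 0.11.

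All 16 mitotic genes were also below 0 in NE/Ovx against Sham rats, between -0.35 and -0.04 with a median of -0.29. Here 6 passed the cut-offs of the study, all as lower, or 37.5% against 6.52% of all tested genes. In 10 the NE/Ovx rats all lay below the Sham rats, or 62.5% against 11.4%. Kif11, the motor that pushes spindle poles apart, had 267, 234 and 229 CPM in the RE/Ovx rats, 233, 225 and 262 CPM in the NE/Ovx rats and 311, 307 and 299 CPM in the Sham rats. Every NE/Ovx rat and every RE/Ovx rat was below the lowest Sham rat, and the log2 fold change in NE/Ovx against Sham rats was -0.35 ± 0.09, with an adjusted p of 0.0891 in edgeR. Cdc20, the activator of the anaphase-promoting complex, had 59.4, 54.0 and 52.8 CPM in the RE/Ovx rats, 57.3, 44.6 and 57.2 CPM in the NE/Ovx rats and 66.9, 73.3 and 62.0 CPM in the Sham rats. Its log2 fold change was -0.35 ± 0.12. Bub1, a kinase of the spindle checkpoint, had 168, 160.5 and 152 CPM in the RE/Ovx rats, 166, 150 and 159 CPM in the NE/Ovx rats and 186, 191 and 184 CPM in the Sham rats. Its NE/Ovx and Sham rats did not overlap, yet its log2 fold change of -0.24 ± 0.08 between them missed the fold asked by the study.

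The mitotic kinase and its cyclins had differences of like size. Cdk1 had 107, 93.7 and 85.0 CPM in the RE/Ovx rats, 86.0, 74.6 and 101 CPM in the NE/Ovx rats and 106, 119 and 101 CPM in the Sham rats. Ccnb1, the B-type cyclin that Cdk1 needs at mitotic entry, had 96.4, 89.1 and 79.0 CPM in the RE/Ovx rats, 81.9, 68.7 and 88.0 CPM in the NE/Ovx rats and 94.6, 113 and 94.1 CPM in the Sham rats. Ccna2, the A-type cyclin of S phase and G2, had 202, 179.7 and 163 CPM in the RE/Ovx rats, 165, 149 and 196 CPM in the NE/Ovx rats and 199, 223 and 209.9 CPM in the Sham rats. The NE/Ovx rats lay below the Sham rats in all 3 genes, though for Cdk1 the highest NE/Ovx and the lowest Sham rat both rounded to 101 CPM, with log2 fold changes of -0.32 ± 0.13 for Cdk1, -0.34 ± 0.12 for Ccnb1 and -0.31 ± 0.12 for Ccna2. Top2a, the topoisomerase that untangles sister chromosomes, had 695, 593 and 552 CPM in the RE/Ovx rats, 602, 539 and 645 CPM in the NE/Ovx rats and 688, 773 and 717 CPM in the Sham rats. Its log2 fold change was -0.29 ± 0.12, and its adjusted p was 0.201. Mki67 had 2219.6, 2043 and 1754 CPM in the RE/Ovx rats, 1943, 1635 and 2246 CPM in the NE/Ovx rats and 2519.6, 2557 and 2168 CPM in the Sham rats. This antigen, widely used to stain dividing cells, overlapped between NE/Ovx and Sham rats, at -0.32 ± 0.15, and passed neither threshold. Foxm1, a transcription factor that drives many mitotic genes, was nearest to 0 of the mitotic set at -0.04 ± 0.09. The kinases Plk1, Aurka and Aurkb, the checkpoint gene Bub1b, Ccnb2, Birc5 (survivin) and the spindle factor Tpx2 lay between -0.32 and -0.14 and passed neither threshold.

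**Figure D3:**
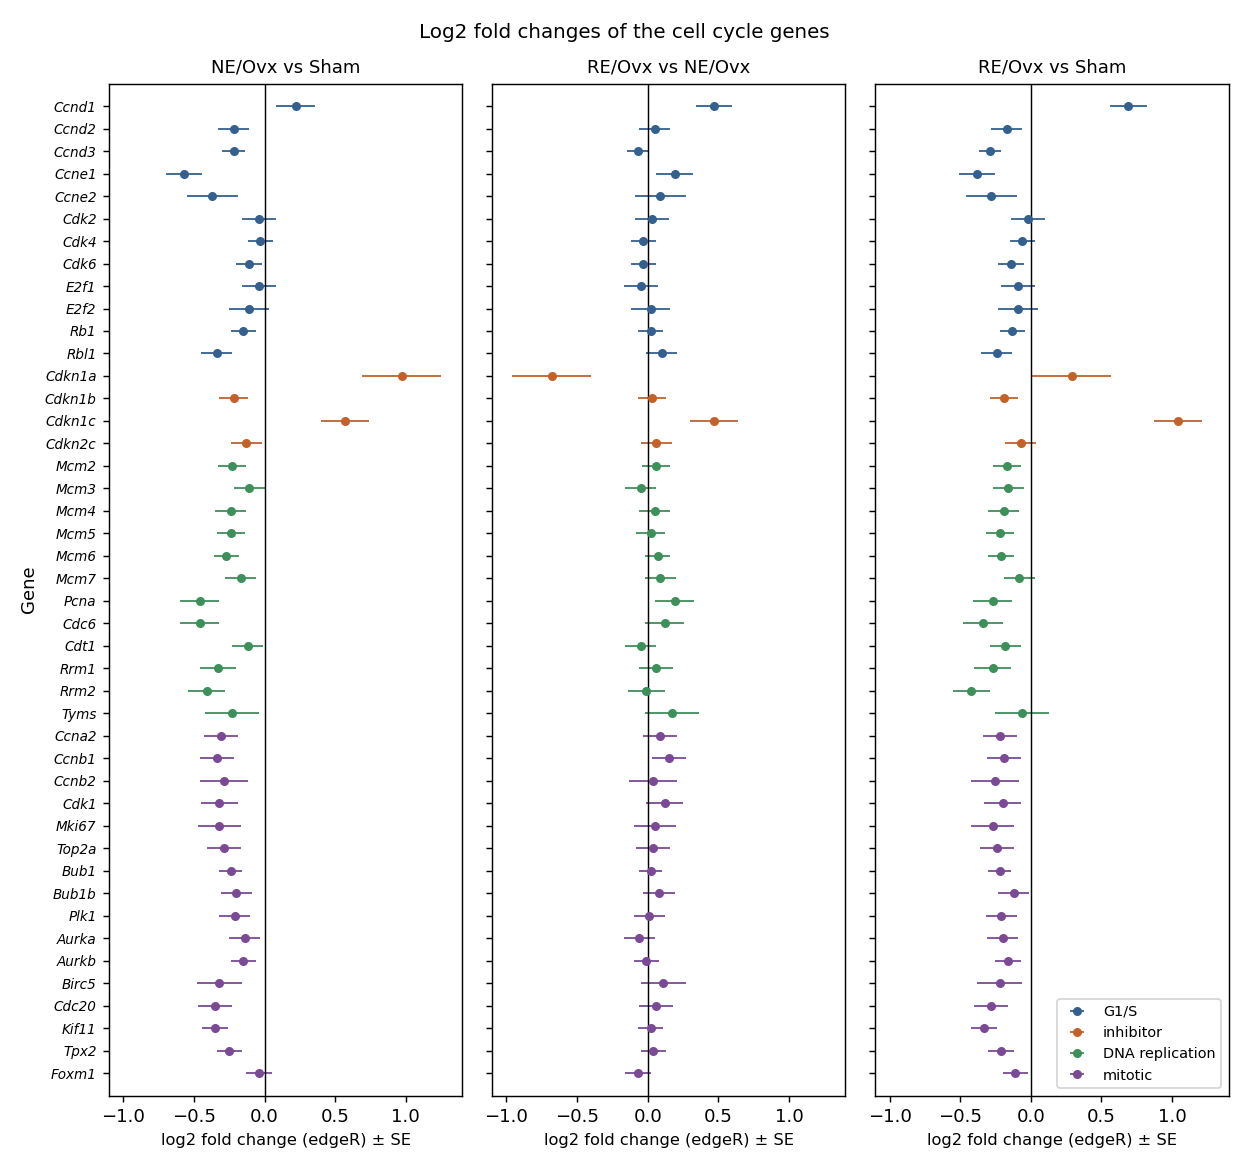
Log2 fold changes of the 44 tested genes in the 3 comparisons, with standard errors, arranged by role. All replication and mitotic genes lie below 0 in NE/Ovx against Sham and in RE/Ovx against Sham, and most of the set lies close to 0 in RE/Ovx against NE/Ovx.

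Letters in the promoters of the replication and mitotic genes are shown because those genes had log2 fold changes of 1 sign against Sham rats and are known to be controlled in part through short promoter elements. RefSeq windows from 250 bases before to 50 bases after the start site (GRCr8) were held for 31 of the 45 genes and were searched on both strands. The CHR element (TTTGAA) was in 8 of 12 mitotic windows, 0 of 6 G1/S windows and 1 of 9 replication windows, against 18.3% of 33469 windows of all genes. The CCAAT box (CCAAT), bound by NF-Y, was in 9 of 12 mitotic windows, 6 of 9 replication windows and 2 of 6 G1/S windows, against 37.5% of all windows. Both elements were together in 7 of 12 mitotic windows and in 0 of 9 replication windows, against 7.41%. An E2F site (TTTCCCGC, TTTCGCGC, TTTGCCGC or TTTGGCGC, where sites on opposite strands can overlap) was in 7 of 9 replication windows, 2 of 6 G1/S windows and 1 of 12 mitotic windows, against 2.14% of all windows. Of the 4 inhibitor windows, 1 held a CCAAT box and 0 held a CHR element or an E2F site. Such a match is a description of letters, and no binding was measured. The stretches below are 5′ to 3′ on the strand of the gene, and capitals mark a CCAAT box (CCAAT or its reverse complement ATTGG), a CHR element (TTTGAA or its reverse complement TTCAAA) or an E2F site, of which Mcm6 has overlapping ones on opposite strands. They come from chr20:19265203-19265251 on the plus strand for Cdk1, chr5:137255829-137255894 on the minus strand for Cdc20, chr10:84473103-84473163 on the minus strand for Top2a, chr13:42404387-42404497 on the minus strand for Mcm6 and chr19:13488723-13488812 on the plus strand for Mcm5.
Cdk1: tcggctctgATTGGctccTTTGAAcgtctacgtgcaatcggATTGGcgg
Cdc20: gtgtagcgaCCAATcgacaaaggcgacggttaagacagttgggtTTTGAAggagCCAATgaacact
Top2a: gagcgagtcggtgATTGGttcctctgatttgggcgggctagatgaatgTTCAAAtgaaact
Mcm6: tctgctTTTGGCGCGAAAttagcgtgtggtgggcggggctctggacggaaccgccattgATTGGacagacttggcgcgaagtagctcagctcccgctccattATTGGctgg
Mcm5: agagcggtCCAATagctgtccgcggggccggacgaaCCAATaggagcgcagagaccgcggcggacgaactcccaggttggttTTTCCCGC
Cdk1, Cdc20 and Top2a passed the cut-offs of the study as lower in NE/Ovx rats and hold CCAAT and CHR letters. Mcm6, which passed too, and Mcm5, which did not, hold CCAAT boxes and E2F sites. In the searched windows Ccnb2, Mki67, Bub1b, Plk1 and Birc5 hold CHR letters and did not pass, while Ccnb1 and Kif11 passed without them. Mcm2, Mcm3, Mcm7, Cdt1 and Tyms hold E2F sites and did not pass, while Pcna and Rrm1 passed without them. A link between letters and levels was not tested.

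Resistance exercise after ovariectomy was set against ovariectomy alone to ask whether training moved the same genes. In this comparison few of them differed. No gene of the set passed the adjusted threshold in edgeR, where no gene of all those tested was called (0% higher and 0% lower). None of the set passed it with DESeq2 fitted to all 9 libraries, where only 5 of the 14520 tested genes did. There were 3 genes with an unadjusted p under 0.05, against 5.28% of all tested genes. By the cut-offs of the study Ccnd1 and Cdkn1c were higher, or 4.55% of the 44 against 1.54% of all tested genes, and Cdkn1a was lower, or 2.27% against 3.15%. Log2 fold changes were above 0 for 33 of 44 genes, against 51.8% of all tested genes, with a median of 0.05. That median was -0.042 without RE/Ovx rat 3, -0.018 without NE/Ovx rat 8 and 0.115 without NE/Ovx rat 9, so its sign rested on single rats. The role medians were 0.02 for G1/S genes, 0.05 for inhibitors, 0.06 for replication genes and 0.04 for mitotic genes. No replication or mitotic gene separated the groups, against 4.75% of all tested genes that did so as higher and 6.84% as lower.

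Ccnd1, the D-type cyclin that growth signals induce in many cell types, had 33.0, 38.4 and 43.6 CPM in the RE/Ovx rats, 27.8, 26.2 and 29.2 CPM in the NE/Ovx rats and 27.4, 23.3 and 20.8 CPM in the Sham rats. Every RE/Ovx rat was above every NE/Ovx and Sham rat, and the NE/Ovx and Sham rats overlapped. The log2 fold change in RE/Ovx against NE/Ovx rats was 0.47 ± 0.13, with an unadjusted p of 0.00556 and an adjusted p of 0.921 in edgeR. Among the 3 D-type cyclins, compared per length, Ccnd1 took 5.24 ± 0.826% of the summed FPKM in RE/Ovx rats, 3.72 ± 0.00649% in NE/Ovx rats and 2.77 ± 0.299% in Sham rats (SD, n = 3 each). Ccnd3 took 74.0 ± 3.22% in RE/Ovx rats, 76.6 ± 1.65% in NE/Ovx rats and 77.3 ± 1.04% in Sham rats. Ccnd1 was a small part of D-type cyclin RNA in all 9 bones. Cdkn1c was at 0.47 ± 0.17 in RE/Ovx against NE/Ovx rats and an adjusted p of 0.921, and its groups did not overlap. Cdkn1a was at -0.68 ± 0.28 in the same comparison, an adjusted p of 0.924, and its groups overlapped, since NE/Ovx rat 6 lay below RE/Ovx rats 5 and 8.

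Against the Sham rats, the RE/Ovx rats had higher Ccnd1 and Cdkn1c, and all their replication and mitotic genes again had log2 fold changes below 0. Both genes rose past the adjusted threshold of edgeR, or 2 of 44 against 5% of all tested genes called higher, and none of the set was called lower, against 3.06%. As a count, those 2 calls were no more than the share over all genes. There were 12 genes with an unadjusted p under 0.05, against 25.6% of all tested genes. Ccnd1 averaged 38.3 ± 5.26 CPM in RE/Ovx rats and 23.8 ± 3.34 CPM in Sham rats (SD, n = 3 each), a log2 fold change of 0.69 ± 0.13 with an adjusted p of 0.0197 in edgeR. Cdkn1c averaged 14.1 ± 2.04 CPM in RE/Ovx rats and 6.83 ± 1.11 CPM in Sham rats, a log2 fold change of 1.04 ± 0.17 with an adjusted p of 0.0129. Both calls were lost without RE/Ovx rat 5, with adjusted p of 0.0695 for Ccnd1 and 0.057 for Cdkn1c in edgeR, and without RE/Ovx rat 8, with 0.0791 and 0.0538 for the same genes. All RE/Ovx values of both genes were above all Sham values, against 14.9% of all tested genes that separated the groups in this way.

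By the cut-offs of the study 2 genes were higher in RE/Ovx than in Sham rats, against 14% of all tested genes, and 6 were lower, or 13.6% of the 44 against 9.17%. The lower genes were Ccnd3 at -0.29 ± 0.08, Ccne1 at -0.38 ± 0.13, Cdc6 at -0.34 ± 0.14, Rrm2 at -0.42 ± 0.13, Cdc20 at -0.28 ± 0.12 and Kif11 at -0.33 ± 0.09. Ccnd3, Rrm2 and Kif11 passed the adjusted threshold in DESeq2 on the 9 libraries, and in edgeR without RE/Ovx rat 3. Over all tested genes, in either direction, DESeq2 called 1964 of 14520 and edgeR without that rat called 1749 of 14688. The total of 8 became 18 without RE/Ovx rat 3 and 4 without RE/Ovx rat 8, and with libraries scaled to their totals it was 4, with 2 higher and 2 lower. Over all tested genes the total by these cut-offs was 3363 of 14520 with all rats and 3910 of 14688 without RE/Ovx rat 3. It was 2527 of 14659 without RE/Ovx rat 8 and 3320 of 14520 with library totals. The log2 fold change was below 0 for 41 of 44 genes, against 51.1% of all tested genes, and 10 genes had RE/Ovx rats all below Sham rats, or 22.7% against 13%. The medians were -0.14 for G1/S genes, -0.2 for replication genes, -0.21 for mitotic genes and 0.11 for inhibitors, the last of which was -0.068 with no filter on low counts. For the set as a whole the median was -0.19 in RE/Ovx and -0.23 in NE/Ovx, each against the same Sham rats.

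**Figure D4:**
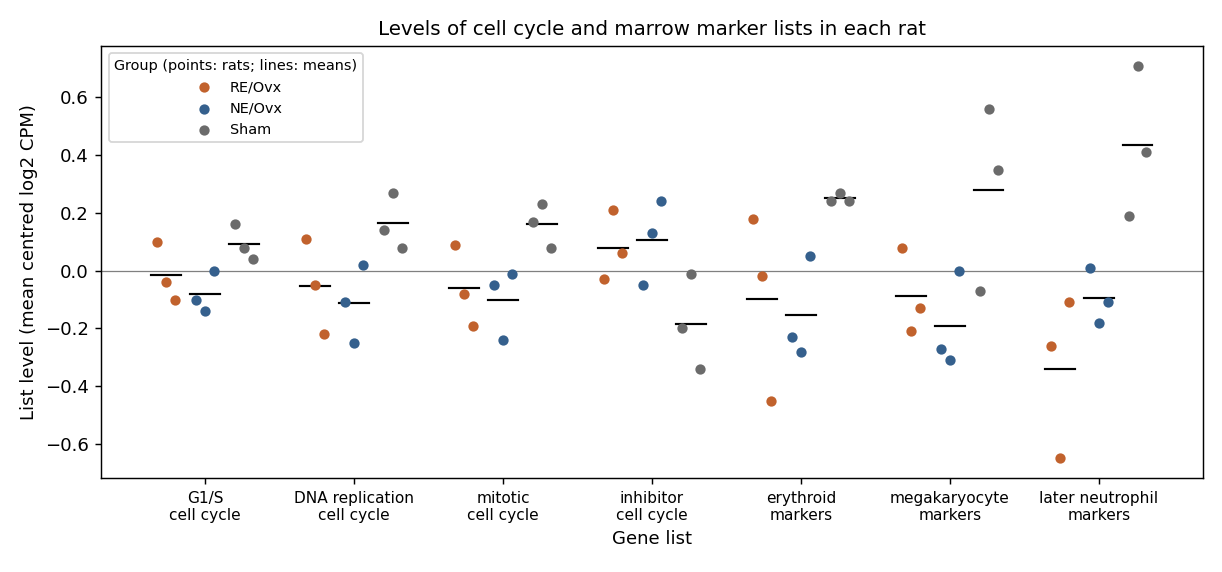
Mean level of each gene list in each rat, as log2 CPM centred on the mean of each gene over the 9 rats, for the 4 roles and for erythroid, megakaryocyte and later neutrophil markers, with groups in the order RE/Ovx, NE/Ovx and Sham. RE/Ovx rat 3 is the highest and RE/Ovx rat 8 the lowest of its group for replication, mitotic and erythroid genes.

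Rats of one group differed from each other along the whole set. RE/Ovx rat 3 had the highest value of its group in 38 of 44 genes and RE/Ovx rat 8 the lowest in 35. NE/Ovx rat 9 was the highest of its group in 30 genes and NE/Ovx rat 8 the lowest in 32. Among the Sham rats, rat 7 was highest in 26 genes, rat 12 in 18 and rat 8 in 0. Summed over the 12 replication genes, the level was 1987, 1765 and 1589.8 CPM in the RE/Ovx rats, 1701, 1540.1 and 1870.1 CPM in the NE/Ovx rats and 2009, 2247 and 1945 CPM in the Sham rats. The 16 mitotic genes summed to 4624, 4188 and 3749 CPM in the RE/Ovx rats, 4098, 3580 and 4495 CPM in the NE/Ovx rats and 5057, 5211 and 4624 CPM in the Sham rats. Mki67 was the largest part of the mitotic sum, with 2219.6 CPM in RE/Ovx rat 3. NE/Ovx rats lay below all Sham rats in both sums, while RE/Ovx rat 3 reached the Sham values. In both sums the range within the RE/Ovx group was wider than the distance of its mean from that of either other group.

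A further 146 genes of the cell cycle were listed by role outside the set, and 142 of them were tested. In NE/Ovx against Sham rats 131 had a log2 fold change below 0, or 92.3% against 49.6% of all tested genes, with a median of -0.21. By the cut-offs of the study 41 were lower, or 28.9% against 6.52% of all tested genes, and none was higher, against 11.3%. There were 48 with an unadjusted p under 0.05, against 20.5% of all tested genes. The smallest adjusted p in edgeR was 0.0539. By role, 24 of 60 mitotic genes were lower with a median of -0.25, 10 of 46 replication genes with a median of -0.15, 4 of 23 G1/S genes with a median of -0.14 and 3 of 13 inhibitors with a median of -0.23. Cenpe, a kinetochore motor, averaged 222 ± 9.77 CPM in NE/Ovx rats and 293 ± 21.6 CPM in Sham rats, with an adjusted p of 0.0671 in edgeR. Tipin, a protein of the replication fork, averaged 21.0 ± 1.68 CPM in NE/Ovx rats and 29.4 ± 3.65 CPM in Sham rats, with an adjusted p of 0.077. In RE/Ovx against NE/Ovx rats 94 of the 142 were above 0, against 51.8% of all tested genes. An unadjusted p under 0.05 was found for 0 of them, against 5.28% of all tested genes, and the smallest adjusted p in edgeR was 0.942. The smallest p of each role there belonged to Orc2, a subunit of the origin recognition complex, at 0.23 ± 0.11, Nek2 at 0.2 ± 0.13, Wee1, the kinase that restrains Cdk1, at 0.16 ± 0.1 and Mnat1, a subunit of the Cdk-activating kinase, at 0.16 ± 0.11.

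In RE/Ovx against Sham rats 127 of the 142 wider genes were below 0, or 89.4% against 51.1% of all tested genes. By the cut-offs of the study 28 were lower, or 19.7% against 9.17%, and 1 was higher, or 0.704% against 14%. Of the 142, Cdc25a and Gadd45a fell past the adjusted threshold in edgeR, where 3.06% of all tested genes were called lower, so that 2 calls in a list of this size were no more than the share over all genes. Cdc25a, the phosphatase that activates Cdk2, averaged 78.1 ± 6.01 CPM in RE/Ovx rats and 105 ± 15.4 CPM in Sham rats, with a log2 fold change of -0.43 ± 0.11 and an adjusted p of 0.0437. Gadd45a, a growth arrest gene that DNA damage induces, averaged 68.4 ± 6.79 CPM in RE/Ovx rats and 101 ± 10.5 CPM in Sham rats, with a log2 fold change of -0.56 ± 0.11 and an adjusted p of 0.0204. Gadd45a averaged 70.0 ± 5.79 CPM in NE/Ovx rats, with an adjusted p of 0.0539 against Sham rats, and Cdc25a averaged 81.5 ± 2.34 CPM there, with an adjusted p of 0.116. Gadd45a had a log2 fold change below 0 against Sham rats in both ovariectomised groups, while Cdkn1a and Cdkn1c had values above 0 in both. Fen1, the flap nuclease of lagging-strand synthesis, was at -0.43 ± 0.12 in RE/Ovx against Sham rats with an adjusted p of 0.0562.

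Markers of several marrow cell types also differed between the groups. All 20 erythroid genes had log2 fold changes below 0 in NE/Ovx against Sham rats, with a median of -0.36. By the cut-offs of the study 6 of them were lower, or 30.0% against 6.52% of all tested genes. In RE/Ovx against Sham rats their median was -0.29, and 1 was lower by these cut-offs, or 5.0% against 9.17%. Their summed level was 64063, 55269 and 39897 CPM in the RE/Ovx rats, 48618, 47581 and 60455 CPM in the NE/Ovx rats and 70420.2, 71888 and 67097 CPM in the Sham rats. The globin genes Hba1, Hba2 and Hbb were its largest parts, with 19258.9, 8452.62 and 22742.2 CPM in RE/Ovx rat 3. In all 3 groups the rats stood in the same order for this sum as for the summed replication genes, with rat 8 of each group lowest. All 9 tested megakaryocyte genes (Gp1bb was listed at 0 in every rat) and all 9 tested later neutrophil genes were below 0 in NE/Ovx against Sham rats, with 7 lower in each list by the cut-offs of the study, or 77.8% against 6.52% of all tested genes. Megakaryocyte genes summed to between 1189 and 1382 CPM in RE/Ovx rats, between 1144 and 1333 CPM in NE/Ovx rats and between 1419.7 and 1905 CPM in Sham rats. Later neutrophil genes had a median of -0.78 in RE/Ovx and -0.54 in NE/Ovx, each against Sham rats, and in the RE/Ovx rats 6 of the 9 fell past the adjusted threshold in edgeR, against 3.06% of all tested genes. Their summed level was between 3785 and 5598 CPM in RE/Ovx rats, between 5037 and 5831 CPM in NE/Ovx rats and between 6853 and 11260.1 CPM in Sham rats. Granule-forming neutrophil precursor genes had medians of -0.67 in RE/Ovx and -0.4 in NE/Ovx, each against Sham rats, and summed to between 980.4 and 1515 CPM in RE/Ovx rats, between 1341 and 1558 CPM in NE/Ovx rats and between 1394 and 2508 CPM in Sham rats. The part of these cell types in the levels of the cell cycle genes was not tested.

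The other marker lists differed in direction. All 12 B cell precursor genes were above 0 in NE/Ovx against Sham rats, with a median of 1.14 and summed levels between 842 and 1035 CPM in RE/Ovx rats, between 685 and 1142 CPM in NE/Ovx rats and between 179.6 and 570.1 CPM in Sham rats. Growth plate chondrocyte genes had a median of 0.99 in NE/Ovx against Sham rats, with all 9 tested genes above 0, and adipocyte genes had a median of 2.31, with all 10 above 0. Osteoblast and osteocyte genes were split, with 7 of 10 above 0, a median of 0.46, a range between -0.6 and 1.72 and 4 higher by the cut-offs of the study, or 40.0% against 11.3% of all tested genes. Like Ccnd1 and Cdkn1c, the adipocyte genes had their highest mean in the RE/Ovx rats. So did the summed B cell precursor, growth plate chondrocyte, osteoblast and osteocyte, and T cell genes. Adipocyte genes summed to between 384 and 567 CPM in RE/Ovx rats, between 279 and 386 CPM in NE/Ovx rats and between 65.6 and 139.8 CPM in Sham rats. In RE/Ovx against NE/Ovx rats the adipocyte median was 0.51. The same comparison gave 0.09 for B cell precursor, 0.04 for chondrocyte, 0.06 for osteoblast and osteocyte, and 0.28 for T cell genes. All 10 skeletal muscle genes were below 0 in RE/Ovx rats against both other groups, with a median of -0.97 against NE/Ovx rats and -0.81 against Sham rats. They summed to between 1968 and 3283 CPM in RE/Ovx rats, between 4623 and 5388 CPM in NE/Ovx rats and between 1819.6 and 5857 CPM in Sham rats. RNA of these muscle genes was thus present in every library although muscle had been removed from the bones, and its source was not tested. T cell genes had a median of 0.19 in NE/Ovx against Sham rats, with 5 of 7 above 0. Interferon response genes summed to 2550 CPM in NE/Ovx rat 6 and to between 698 and 1505 CPM in the other 8 rats, and NE/Ovx rat 6 was the lowest of its group for Cdkn1a. The part of these lists in the levels of Ccnd1, Cdkn1a and Cdkn1c was not tested.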

How the data were processed

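RNA from 9 left tibiae was sequenced after removal of ribosomal RNA with a stranded total RNA kit. The submitters' processing notes name Trimmomatic, HISAT2, Bowtie2, StringTie, DESeq and the rat build Rnor_6.0; tool versions and the strand setting of the counting are not given in the sources used here. Raw counts per gene and FPKM were deposited by the authors for 22589 genes in each library. The FPKM values the authors gave were used only for levels between genes and for alternatives.

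Counts were filtered with filterByExpr (minimum count 10), scaled with TMM and tested in edgeR 4.0.16 (R 4.3.3) with group as the single factor over all 9 libraries, which left 14520 genes. Log2 CPM values used a prior count of 2. Alternatives used DESeq2 1.42.0, limma 3.58.1 on log2(FPKM + 1) or log2(FPKM + 0.1), other scalings and filters, and each rat left out in turn. The edgeR step was checked on simulated counts. The members and the lists (4 roles, 146 further cell cycle genes, 11 marker lists) were chosen with earlier results of these data known. Values in every rat are given for members past either threshold in any comparison, for the 2 with the smallest p per role and comparison, and for the most abundant member of each role. Of the further cell cycle genes, those past the adjusted threshold and the 1 with the smallest p per role and comparison are named. Promoters are from RefSeq (GRCr8) and their coordinates do not apply to Rnor_6.0. Of the replicate numbers in the titles, only 8 occurs in all groups, so rats were not paired. Reads of overlapping or antisense genes may be shared.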

Additional observations from a re-analysis of the deposited data

How the results depend on the processing

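With DESeq2, 4 genes of the set passed the adjusted threshold in NE/Ovx against Sham rats on the 9 libraries, and 4 on the libraries of these groups alone without a filter on low counts, against 0 in edgeR. Over all tested genes these settings called 998 of 14520, 885 of 18095 and, in edgeR, 178 of 14520. In RE/Ovx against Sham rats DESeq2 on the 9 libraries called 5 genes, against 2 in edgeR. Of all 14520 tested genes DESeq2 called 1964 there and edgeR called 1171. The number past the cut-offs of the study in RE/Ovx against Sham rats was 8 in edgeR, 4 with libraries scaled to their totals, 4 with limma on log2(FPKM + 1), 5 with limma on log2(FPKM + 0.1) and 4 with limma on log2(FPKM + 1) for genes of at least 1 FPKM in 3 libraries. Over all tested genes, those lower by these cut-offs were 1332 in edgeR, 911 with library totals and 816 with limma on log2(FPKM + 1). Those higher were 2031, 2409 and 2280 in the same settings. The cause was not tested.

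Leaving out 1 rat at a time gave between 0 and 5 genes past the adjusted threshold in RE/Ovx against Sham rats and 0 in the other comparisons. Over all tested genes there were between 103 and 1749 in RE/Ovx against Sham rats and between 9 and 181 in NE/Ovx against Sham rats. In RE/Ovx against NE/Ovx rats there were 0. Past the cut-offs of the study there were between 8 and 22 genes in NE/Ovx against Sham rats, between 2 and 4 in RE/Ovx against NE/Ovx rats and between 4 and 18 in RE/Ovx against Sham rats. Over all tested genes the totals lay between 2132 and 2822, between 481 and 1025 and between 2527 and 3910 in the same comparisons. The median of the set stayed between -0.273 and -0.179 in NE/Ovx against Sham rats and between -0.262 and -0.131 in RE/Ovx against Sham rats, and it took both signs, between -0.042 and 0.115, in RE/Ovx against NE/Ovx rats. The inhibitor median depended on the filter, since Cdkn2a entered when none was used. Then the median in edgeR was -0.127 in NE/Ovx and -0.068 in RE/Ovx, each against Sham rats. No paired analysis was possible because the groups compared share only 1 rat number. Depth limited the reading of Cdkn2a, which had 5 counts or fewer in every library.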

Other observations

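A list of 20 known p53 target genes was looked at after the values of Cdkn1a, itself such a target, had been seen, and 19 were tested. Their median log2 fold change was 0.07 in NE/Ovx against Sham rats, with 3 higher and 0 lower by the cut-offs of the study, or 15.8% higher against 11.3% of all tested genes. In RE/Ovx against Sham rats the median was 0.05, with 4 higher, or 21.1% against 14% of all tested genes, and 3 lower, or 15.8% against 9.17%, and in RE/Ovx against NE/Ovx rats it was -0.08. The gene of the list past the adjusted threshold in edgeR was Phlda3, at 1.13 ± 0.23 in RE/Ovx against Sham rats with an adjusted p of 0.0205. Phlda3 was at 0.92 in NE/Ovx against Sham rats, with an adjusted p of 0.0751. Mdm2, which limits p53, was at -0.07 in RE/Ovx and 0.07 in NE/Ovx, each against Sham rats. Gadd45a, the growth arrest gene that DNA damage induces, was not in this list and was lower against Sham rats. It was at -0.56 ± 0.11 in RE/Ovx rats, with an adjusted p of 0.0204 in edgeR. In NE/Ovx rats it was at -0.53 ± 0.11, with an adjusted p of 0.0539.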
